A study of Mus musculus with 12 samples.

Results

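The 2 oncogene transgenes AEG1 and MYC, each carried alone, were compared in mouse liver: 3 livers of AEG1 mice were set against 3 livers of MYC mice, 6 of the 12 libraries of the series. The members were chosen by genotype label alone. The AEG1 mice carried Alb/AEG-1 and the MYC mice carried Alb/c-Myc, and both came from crosses of mice heterozygous for each, which also gave the 3 wild type (WT) mice used here for orientation and 3 mice with both transgenes (AEG1_MYC). All were untreated adults. In such names the prefix Alb stands for the albumin gene, whose promoter is active in hepatocytes, so a transgene of this kind models expression in that cell type and not in the other cells of the liver. The labels give no sex, age in weeks, litter, time of collection or batch, and nothing beyond a mouse number says how the samples were handled. The p-values set each difference against the spread between these mice and cannot separate genotype from handling.

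AEG-1, also called metadherin, is the product of Mtdh. It is a membrane-anchored protein of the endoplasmic reticulum and the nucleus that is abundant in many liver cancers; it binds the nuclease Snd1, and it has been linked to NF-kB signalling, to inhibition of retinoid X receptors and to fat accumulation in the liver. c-Myc, the product of Myc, is a transcription factor that binds E-box DNA together with Max and is known for driving ribosome production, translation and entry into the cell cycle. In hepatocytes both can promote tumours, Myc mainly through growth and AEG-1 through several signalling routes. A direct contrast of the 2 genotypes asks where the liver transcriptomes under each oncogene differ.

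Levels are given as CPM, read counts of a gene per 1000000 reads in genes after TMM scaling, and differences as log2 fold changes of AEG1 over MYC livers ± SE. Reads in genes ranged from 21931197 to 40552316 in the AEG1 libraries and from 28672580 to 36177913 in the MYC libraries. Alb, which encodes albumin and defines hepatocytes, took 6.18% to 6.85% of the reads in AEG1 livers and 5.57% to 7.07% in MYC livers. Replicate 3 stood apart from replicates 1 and 2 in the AEG1 and in the MYC group on the genes of the circadian clock. A clock score, the mean log2 CPM of day-phase genes minus that of night-phase genes, was -1.19, -3.08 and 3.20 in AEG1 replicates 1 to 3, -3.04, -3.25 and 2.14 in MYC replicates 1 to 3 and 0.319, -1.72 and 1.29 in WT replicates 1 to 3. Arntl, a core clock activator, had 26.02, 53.8 and 1.85 CPM in AEG1 livers and 48.001, 49.0 and 4.15 CPM in MYC livers. The AEG1 and MYC groups thus each held 2 libraries with a negative score and 1 with a positive score.

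Myc, the targeted gene of the MYC mice, had 3.86, 3.50 and 4.47 CPM in AEG1 livers, against 23.03, 30.0 and 52.3 CPM in MYC livers and 4.62, 2.73 and 2.21 CPM in WT livers. Every MYC liver lay above every AEG1 and WT liver, as the labels have it, and the AEG1 and WT livers overlapped. The means were 3.94 ± 0.489 CPM in AEG1 livers and 35.1 ± 15.3 CPM in MYC livers (SD, n = 3 each), a log2 difference of -3.15 ± 0.36. This difference had an adjusted p of 0.0910 in edgeR's quasi-likelihood test, which did not pass 0.05, and one of 1.38e-15 in DESeq2. Mtdh had 96.5, 99.7 and 90.4 CPM in AEG1 livers and 97.8, 94.1 and 93.96 CPM in MYC livers, ranges that overlapped, with a log2 difference of 0.00 ± 0.07 whose sign turned in several alternative fits. The labels do not give the species of the AEG-1 coding sequence in the transgene, so the mouse Mtdh count does not check the AEG1 label. A gene whose level set the AEG1 livers apart from both other groups was Bnc2, which encodes basonuclin 2, a zinc finger protein. Bnc2 had 4.00, 2.88 and 3.83 CPM in AEG1 livers, 0.578, 0.796 and 0.461 CPM in MYC livers and 0.209, 0.412 and 1.08 CPM in WT livers. Its log2 difference was 2.54 ± 0.48 (adjusted p = 0.215 in edgeR and 1.91e-04 in DESeq2).

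**Figure D1:**
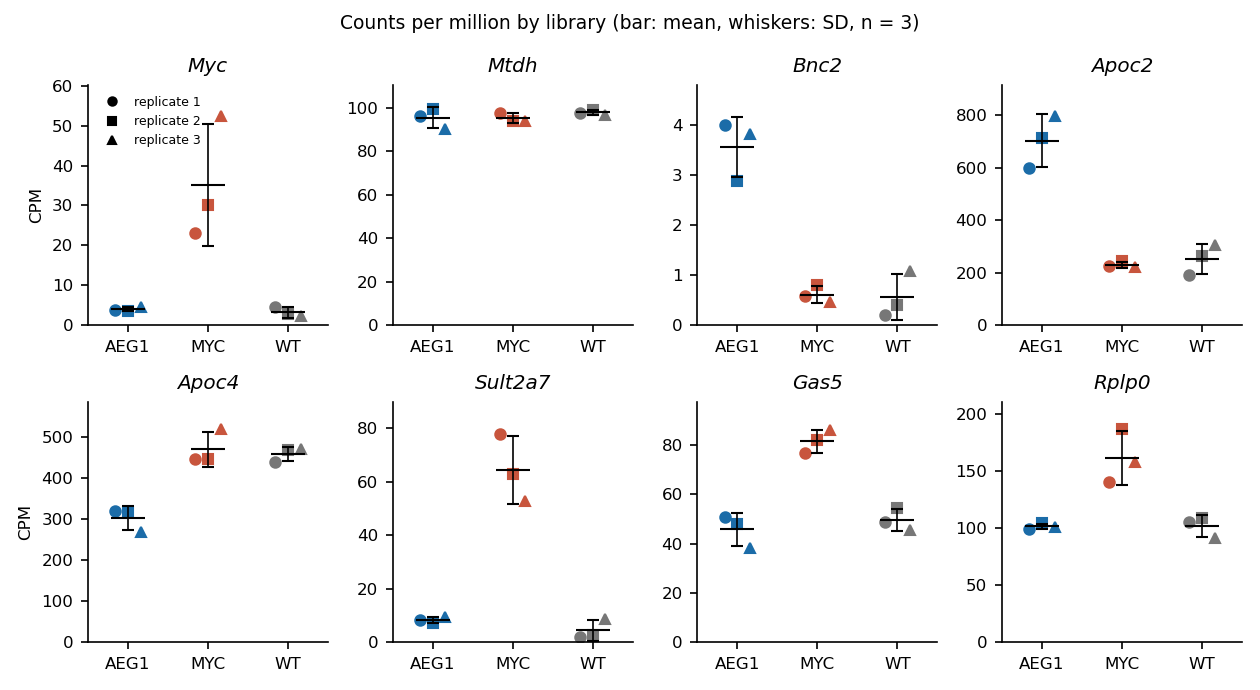
CPM (linear axis from 0) of 8 genes in AEG1, MYC and WT livers; each symbol is a library, its shape is the replicate number, and the horizontal bar and whiskers give mean and SD (n = 3). Myc and Sult2a7 were high in the 3 MYC livers, Bnc2 and Apoc2 were high and Apoc4 low in the 3 AEG1 livers, and Mtdh lay between 90.4 and 99.7 CPM in all 9 livers.

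Across the transcriptome no gene passed the main test between the 2 transgenic groups. Of 22609 genes in the files 13579 were tested, and edgeR called 0 of them (0%) at an adjusted p under 0.05; the lowest adjusted p was 0.0910. At an unadjusted p under 0.05, edgeR gave 857 genes (6.31%), of which 416 (3.06%) were higher and 441 (3.25%) lower in AEG1 livers, and limma gave 828, with 0 called. DESeq2 on the same counts called 84 genes (0.619%), 28 higher (0.206%) and 56 lower (0.413%) in AEG1 livers. The edgeR fit of the 6 AEG1 and MYC libraries alone called 3 genes (0.0223%), which were Apoc2, Meox2 and Sult2a7. Groups did not overlap, with every AEG1 library on the same side of every MYC library, for 873 genes higher in AEG1 (6.43%) and 814 lower (5.99%). The median log2 fold change over all genes was 0.00 (6932 genes, 51%, above 0) and the median SE was 0.17, so list medians below can be read against 0. Since edgeR called no gene, the genes that follow are described by their values and none is reported as changed by that test. The DESeq2 adjusted p is given for some of the genes that DESeq2 called. Where it is left out, the gene may or may not have been called.

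**Figure D2:**
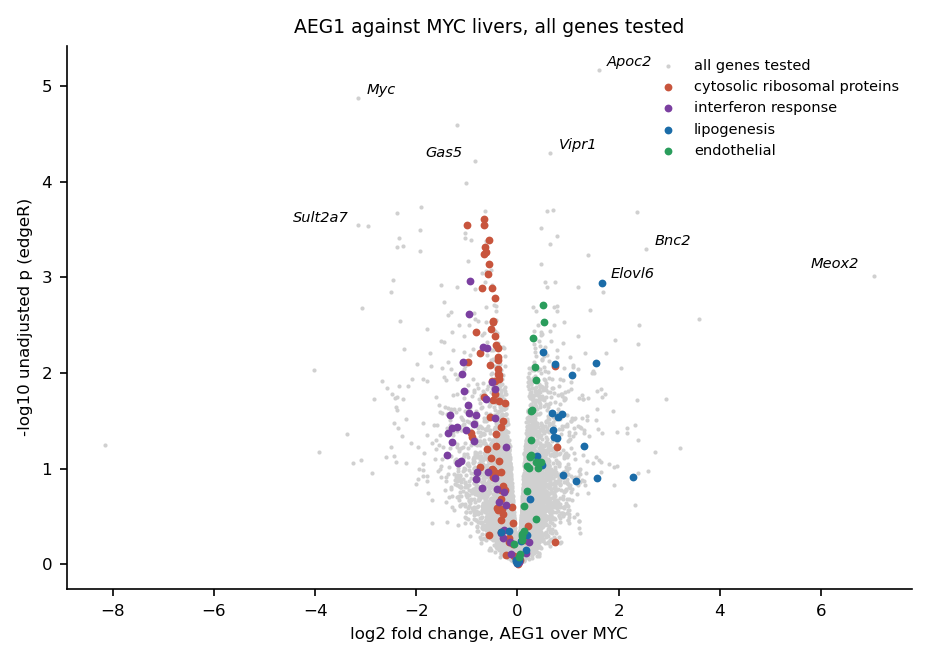
Log2 fold change of AEG1 over MYC livers (x axis) against -log10 of the unadjusted edgeR p (y axis) for the 13579 genes tested, with 4 gene lists in colour. Ribosomal protein and interferon response genes lie mainly left of 0 and lipogenesis and endothelial genes mainly right of 0; 0 genes passed an adjusted p of 0.05.

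The gene with the lowest p was Apoc2, which encodes apolipoprotein C-II, the cofactor of lipoprotein lipase. Apoc2 had 598, 712 and 798 CPM in AEG1 livers, against 226, 243 and 222 CPM in MYC livers and 192, 262 and 304 CPM in WT livers. The 3 AEG1 livers lay far above the other 6, which overlapped one another. The log2 difference was 1.61 ± 0.17 (adjusted p = 0.0910 in edgeR, 0.0177 in edgeR on the 6 libraries alone and 3.43e-14 in DESeq2). Apoc4, its neighbour in the same apolipoprotein cluster, went the other way, with 321, 318 and 269 CPM in AEG1 livers, 447, 447 and 521 CPM in MYC livers and 439, 468 and 472 CPM in WT livers. Its log2 difference was -0.64 ± 0.11 (DESeq2 adjusted p = 1.64e-05). RefSeq also annotates a read-through transcript across both genes, and no source used here states whether counting used strand. Reads shared between neighbouring transcripts therefore cannot be assigned with certainty. The other genes of the cluster were nearer in level. Apoe, which encodes apolipoprotein E, had 16244, 17065 and 18256 CPM in AEG1 livers and 14414, 14913 and 12959 CPM in MYC livers. Apoc1 had 2790.0, 2900.0 and 2176 CPM in AEG1 livers and 2099.8, 2257 and 2013 CPM in MYC livers. The differences were 0.29 ± 0.12 for Apoe and 0.30 ± 0.13 for Apoc1, neither called by edgeR or DESeq2.

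The other genes of lowest p that were higher in AEG1 livers were all called by DESeq2 and none by edgeR. When the WT livers were set beside them, they fell into 2 patterns, except Vipr1, for which the WT livers were intermediate. Lect1, also named Cnmd, which encodes chondromodulin, a cartilage protein known to inhibit vessel growth, had 5.97, 6.80 and 6.64 CPM in AEG1 livers, 3.54, 3.79 and 3.97 CPM in MYC livers and 4.203, 3.89 and 3.50 CPM in WT livers, so the AEG1 livers stood apart. Ids, the lysosomal iduronate sulfatase, likewise had 30.4, 32.7 and 30.6 CPM in AEG1 livers, 20.0, 22.2 and 20.3 CPM in MYC livers and 21.3, 25.4 and 21.7 CPM in WT livers. Tanc2, a scaffold protein gene, had 10.3, 10.4 and 10.3 CPM in AEG1 livers, 6.84, 5.65 and 6.44 CPM in MYC livers and 7.15, 6.66 and 7.20 CPM in WT livers. Vipr1, the receptor for vasoactive intestinal peptide, was the highest in AEG1, intermediate in WT and lowest in MYC livers, with 55.0, 53.05 and 62.8 CPM in AEG1 livers, 38.6, 36.7 and 33.6 CPM in MYC livers and 44.5, 44.5 and 43.4 CPM in WT livers. In the second pattern the MYC livers were the low ones. Meox2, a homeobox gene named here after its values were seen, had 12.7, 10.3 and 8.37 CPM in AEG1 livers, 0.0340, 0.0274 and 0.154 CPM in MYC livers and 0.0596, 5.84 and 8.03 CPM in WT livers. The MYC livers and WT replicate 1 were near 0, and no fold is given. Ank, a membrane transporter that releases pyrophosphate and ATP, had 52.1, 53.7 and 56.0 CPM in AEG1 livers, 37.3, 37.9 and 42.3 CPM in MYC livers and 55.5, 50.6 and 54.7 CPM in WT livers. Srgap3, a regulator of small GTPases, had 2.88, 6.18 and 3.29 CPM in AEG1 livers, 0.510, 0.823 and 1.03 CPM in MYC livers and 4.05, 2.25 and 2.79 CPM in WT livers. Stxbp6 (log2 difference 0.64 ± 0.12), a SNARE-binding protein gene, and Mettl21d (1.40 ± 0.27), also named Vcpkmt, a lysine methyltransferase gene, were also lower in all 3 MYC livers than in the AEG1 and WT means.

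The genes of lowest p that were lower in AEG1 livers were mostly genes that the MYC livers held above both other groups. Sult2a7, a sulfotransferase gene named here after its values were seen, had 8.41, 7.19 and 9.42 CPM in AEG1 livers, against 77.9, 62.9 and 52.8 CPM in MYC livers and 1.97, 2.62 and 8.90 CPM in WT livers. It belongs to a cluster of closely similar Sult2a genes, among which reads may be split, and its log2 difference was -2.95 ± 0.50 (DESeq2 adjusted p = 2.19e-07). Smpdl3b, a membrane phosphodiesterase of the sphingomyelinase family, had 1.40, 1.25 and 1.17 CPM in AEG1 livers, 4.42, 6.59 and 3.28 CPM in MYC livers and 0.447, 0.636 and 0.874 CPM in WT livers, so here both transgenic groups lay above every WT liver. The gene 9030619P08Rik had 3.64, 4.22 and 4.73 CPM in AEG1 livers, 9.08, 9.30 and 7.31 CPM in MYC livers and 5.75, 5.88 and 5.28 CPM in WT livers, with AEG1 lowest. The others of this rank belonged to the translation machinery or were hosts of small nucleolar RNAs.

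Genes of the translation machinery were lower in AEG1 than in MYC livers, and the AEG1 livers were near WT. Of 81 listed cytosolic ribosomal protein genes, 77 were tested; 70 of these were lower in AEG1 livers, 41 at an unadjusted p under 0.05 and 43 without overlap between the groups, against 3.25% and 5.99% of all genes. The median log2 difference was -0.42 (-0.49 to -0.34 leaving out 1 library at a time), beside 0.00 for all genes. The median was 0.04 for AEG1 over WT and 0.47 for MYC over WT, comparisons that share the WT livers. DESeq2 called 13 members, all lower in AEG1 livers, and edgeR called 0. Rplp0, a protein of the ribosomal stalk, had 99.7, 104 and 101 CPM in AEG1 livers, 140.3, 187 and 158 CPM in MYC livers and 106, 109 and 91.5 CPM in WT livers. The 3 MYC livers lay above all 6 others, and MYC replicate 2 was the highest. Rpl22l1, a paralog of the large subunit protein Rpl22, had 8.30, 6.66 and 7.66 CPM in AEG1 livers and 13.2, 18.2 and 13.9 CPM in MYC livers (log2 difference -0.999 ± 0.17, DESeq2 adjusted p = 1.91e-04), and Rpl32 had 36.8, 37.7 and 33.6 CPM in AEG1 livers and 47.8, 60.7 and 52.1 CPM in MYC livers (-0.57 ± 0.11). Rpl23a was the member higher in AEG1 livers at an unadjusted p under 0.05, at low level, with 2.96, 2.88 and 4.52 CPM in AEG1 livers and 1.84, 2.33 and 1.9998 CPM in MYC livers. Ribosomal protein genes have many processed pseudogenes, and between 46.5% and 58.0% of all values in the 12 tables stand on the line for reads that map to several places, so absolute levels of these genes are uncertain.

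Mature transcripts of ribosomal protein genes typically begin with a run of pyrimidines, through which their translation is regulated. The sequences around the annotated start are shown for 6 ribosomal protein genes with a run of pyrimidines at or within 5 bases of that start. In Rpl4 the run lies wholly before the annotated start. All 6 genes were lower in AEG1 livers without overlap between the groups. These were the 6 of lowest p among 15 members that qualified, chosen with values known. The 15 were counted over the lists of ribosomal protein genes and of hosts of small nucleolar RNAs together. Each stretch holds 15 bases before and 15 from the start of the RefSeq gene (GRCm38.p6), 5′ to 3′ on the gene's strand, with the pyrimidine run in capitals.
Rpl22l1: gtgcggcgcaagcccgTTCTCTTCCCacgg
Rpl13a: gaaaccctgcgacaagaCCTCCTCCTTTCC
Rps24: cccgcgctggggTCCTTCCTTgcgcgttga
Rpl4: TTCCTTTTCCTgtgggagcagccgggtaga
Rpl18: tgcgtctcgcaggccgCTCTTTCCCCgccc
Rps21: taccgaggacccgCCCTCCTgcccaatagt
These lie at chr3:28805493-28805522 (+ strand), chr7:45128731-45128760 (- strand), chr14:24490663-24490692 (+ strand), chr9:64173372-64173401 (+ strand), chr7:45718056-45718085 (+ strand) and chr2:180257364-180257393 (+ strand); the Rpl4 run begins upstream of the bases shown and the Rpl13a run ends downstream of them. A run of at least 7 C or T within 5 bases of the start was found in 29 of the 59 ribosomal protein genes with a promoter entry (49.2%), against 16.4% of all 27025 entries. The log2 differences of these 6 genes were -0.999, -0.62, -0.49, -0.49, -0.48 and -0.42 in the order printed. The E-box CACGTG reads the same on both strands and is the element bound by Myc and Max and by other factors. It was present in 8.09% of all windows of 300 bases. The shares were 6 of the 59 ribosomal protein windows (10.2%), 7 of 41 ribosome biogenesis windows (17.1%) and 10 of 32 translation factor windows (31.3%). In the other lists searched they were 1 of 11 small nucleolar RNA host windows (9.09%), 6 of 24 lipogenesis windows (25.0%) and 0 of 33 interferon response windows. A match describes letters in these windows and says nothing of binding in these livers.

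Host genes of small nucleolar RNAs, whose introns carry the guides that modify ribosomal RNA and whose spliced RNAs are usually short-lived, showed the same order. 11 of 12 tested hosts were lower in AEG1 livers, 5 at an unadjusted p under 0.05 (background 3.25%) and 7 without overlap (5.99%), with a median of -0.45; DESeq2 called 3 (0.413% of all genes called lower). The host gene listed as 1500012F01Rik, also named Zfas1, had 8.68, 8.58 and 11.2 CPM in AEG1 livers, 19.3, 21.8 and 24.2 CPM in MYC livers and 9.15, 10.6 and 8.28 CPM in WT livers. Gas5 had 50.9, 48.1 and 38.3 CPM in AEG1 livers, 76.6, 81.7 and 86.0 CPM in MYC livers and 48.9, 54.3 and 45.6 CPM in WT livers. For both genes AEG1 and WT livers overlapped and the 3 MYC livers were above them, with log2 differences of -1.19 ± 0.15 (DESeq2 adjusted p = 2.09e-08) and -0.83 ± 0.12 (1.82e-06). Snhg4, Snhg1 and Snhg8 had log2 differences of -1.32, -0.75 and -0.34.

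Among the factors that build ribosomes, 43 of 47 tested genes were lower in AEG1 livers, 6 at an unadjusted p under 0.05 (background 3.25%), with a median of -0.24. That median rested in part on MYC replicate 3 and was -0.08 without it. The mean level of this list, relative to the 6 compared livers, overlapped between the groups. It was 0.069, -0.231 and -0.210 log2 units in AEG1 replicates 1 to 3 and -0.081, 0.067 and 0.387 in MYC replicates 1 to 3. In WT replicates 1 to 3 it was -0.169, 0.227 and -0.310, so WT replicate 2 lay above MYC replicates 1 and 2. Nhp2, a core protein of the H/ACA ribonucleoproteins that form pseudouridine, had 17.3, 15.8 and 18.4 CPM in AEG1 livers and 22.5, 33.6 and 27.7 CPM in MYC livers, with a log2 difference of -0.70 ± 0.14 (DESeq2 adjusted p = 0.00756). Npm1, the nucleolar chaperone nucleophosmin, had 29.7, 30.6 and 39.8 CPM in AEG1 livers and 43.1, 47.5 and 46.4 CPM in MYC livers. Nle1, a factor of large subunit assembly, had 4.11, 3.02 and 2.73 CPM in AEG1 livers and 5.58, 4.50 and 8.85 CPM in MYC livers. Neither of these was called by DESeq2. Translation factors were lower in 34 of 43 cases, 7 at an unadjusted p under 0.05 (background 3.25%) and 15 without overlap (5.99%), with a median of -0.15 (-0.08 without MYC replicate 3). Eef1b2, an exchange factor of translation elongation, had 109.9, 117 and 126 CPM in AEG1 livers, 166, 206 and 173 CPM in MYC livers and 119.6, 120.1 and 103 CPM in WT livers. The log2 difference was -0.63 ± 0.11 (DESeq2 adjusted p = 2.82e-04). Eef2, the translocase, had 1158, 1254 and 1299 CPM in AEG1 livers and 1444, 1643 and 1488 CPM in MYC livers. Pabpc1, the poly(A) binding protein, had 169, 152 and 168 CPM in AEG1 livers and 191, 206 and 198 CPM in MYC livers. Eef1d differed by -0.24 ± 0.08. Mitochondrial ribosomal protein genes were lower in 61 of 74 cases, 10 without overlap (5.99% of all genes), with a median of -0.07, 4 of them lower and 0 higher at an unadjusted p under 0.05 by edgeR, and 0 called by edgeR or DESeq2.

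**Figure D3:**
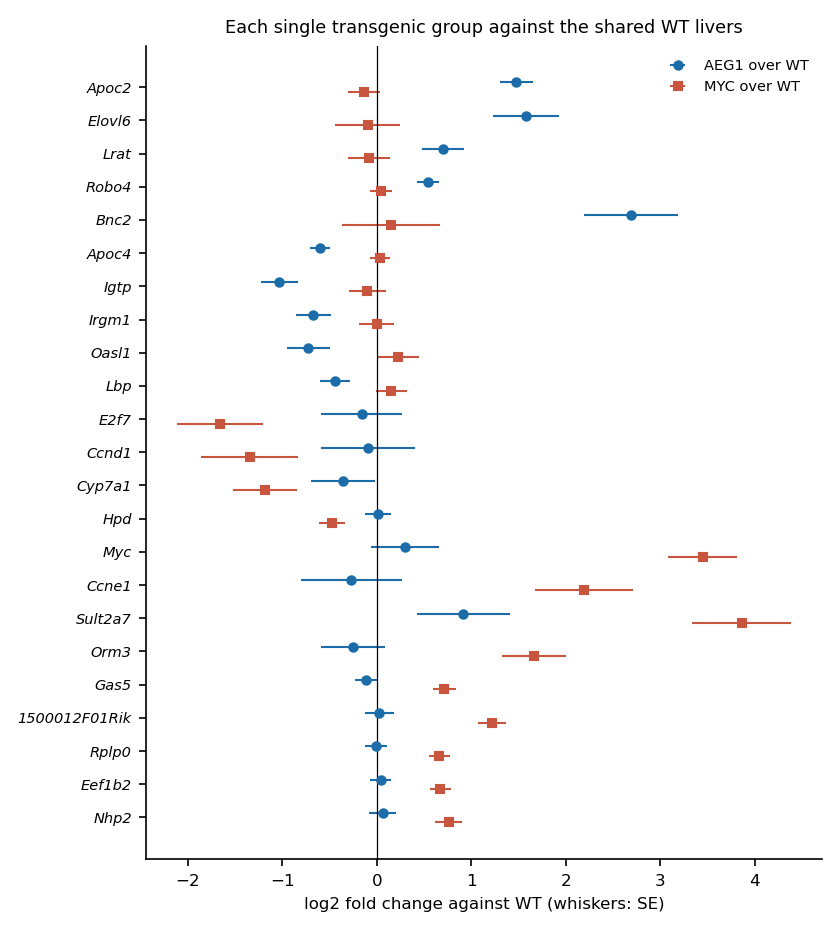
Log2 fold change against the shared WT livers (whiskers: SE) of 23 genes, for AEG1 over WT (circles) and MYC over WT (squares). The translation genes, Myc, Ccne1, Sult2a7 and Orm3 have the MYC point right of the AEG1 point, and Apoc2, Elovl6, Bnc2, Apoc4 and Igtp have the MYC point near 0 and the AEG1 point away from it.

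Members of the MYC network other than Myc differed little. Of 12 tested genes of Max, its partners and its antagonists, 6 were higher and 6 lower, with a median of 0.01, and the member at an unadjusted p under 0.05 was Myc itself. In the cell cycle entry list 11 of 23 genes were higher and 12 lower (median -0.02, or -0.16 without AEG1 replicate 3). Ccne1, cyclin E1, which starts DNA synthesis with its kinase, had 0.876, 0.383 and 1.34 CPM in AEG1 livers, 3.50, 2.88 and 8.51 CPM in MYC livers and 0.924, 1.42 and 0.915 CPM in WT livers. The log2 difference was -2.46 ± 0.52 (DESeq2 adjusted p = 0.00101). Ccnd1, cyclin D1, went the other way with 58.3, 37.9 and 123 CPM in AEG1 livers, 30.3, 29.5 and 32.2 CPM in MYC livers and 135, 57.3 and 41.7 CPM in WT livers; the MYC livers were uniformly low and the other 6 spread widely. E2f7, an atypical repressor of the E2F family, had 2.66, 2.11 and 0.903 CPM in AEG1 livers and 0.714, 0.741 and 0.538 CPM in MYC livers, while the activators E2f2 and E2f3 had log2 differences of -0.97 and -0.39. These 4 were not called by either tool. Mitosis genes had a median of -0.55, with 28 of 30 lower in AEG1 livers, but 0 at an unadjusted p under 0.05 by edgeR and 0 called by DESeq2, and their summed level was 26.2 to 52.1 CPM in AEG1 livers and 43.6 to 59.3 CPM in MYC livers. Plk1, a mitotic kinase, for example had 0.274, 0.335 and 0.513 CPM in AEG1 livers and 0.646, 0.576 and 0.744 CPM in MYC livers, close to the limit of what these depths resolve. The median was -1.02 without AEG1 replicate 3 and -0.32 without AEG1 replicate 1. DNA replication genes had a median of -0.06, with 0 of 29 at an unadjusted p under 0.05 by edgeR and 0 called by DESeq2.

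Interferon response genes were lower in AEG1 than in MYC livers, and here the WT livers were nearer to the MYC livers. These genes are induced by interferons and include antiviral effectors and GTPases of host defence. Of 45 tested members 42 were lower in AEG1 livers, 20 at an unadjusted p under 0.05 (background 3.25%) and 13 without overlap (5.99%), with a median log2 difference of -0.71 (-0.91 to -0.52 leaving out 1 library). The medians against the shared WT livers were -0.62 for AEG1 and -0.02 for MYC. edgeR called 0 members and DESeq2 called 2, Igtp and Oasl1. Igtp, an immunity-related GTPase also named Irgm3, had 52.2, 37.0 and 42.1 CPM in AEG1 livers, 91.2, 71.6 and 87.7 CPM in MYC livers and 109, 93.5 and 66.1 CPM in WT livers, and its log2 difference was -0.93 ± 0.20 (DESeq2 adjusted p = 0.00372). Its relatives Irgm1 and Irgm2 kept the same order. Irgm1 had 79.8, 78.7 and 51.9 CPM in AEG1 livers, 138, 95.2 and 102 CPM in MYC livers and 111, 112 and 113 CPM in WT livers. Irgm2 had 65.6, 59.5 and 56.7 CPM in AEG1 livers, 108, 75.7 and 91.5 CPM in MYC livers and 109, 74.0 and 95.9 CPM in WT livers. For all 3 GTPases every AEG1 liver was below every MYC and WT liver. Oasl1, of the oligoadenylate synthetase family, had 17.4, 20.9 and 13.5 CPM in AEG1 livers and 39.5, 25.5 and 35.0 CPM in MYC livers (DESeq2 adjusted p = 0.0210).

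The interferon signal was not even across the MYC livers. The mean level of the list, relative to the mean of the 6 compared livers, was -0.26, -0.41 and -0.28 log2 units in AEG1 replicates 1 to 3, 0.63, -0.22 and 0.55 in MYC replicates 1 to 3 and 0.43, -0.26 and 0.68 in WT replicates 1 to 3. MYC replicate 2 and WT replicate 2 thus lay at the level of the AEG1 livers. Isg15, the ubiquitin-like modifier, named after its values were seen, showed this in a single gene, with 5.56, 5.32 and 5.56 CPM in AEG1 livers, 14.7, 5.30 and 21.4 CPM in MYC livers and 11.9, 6.55 and 18.8 CPM in WT livers. Irf9, the DNA-binding subunit of the interferon-activated complex, also named afterwards, separated the groups with 46.5, 46.5 and 35.6 CPM in AEG1 livers and 64.9, 50.4 and 59.3 CPM in MYC livers (log2 difference -0.44 ± 0.15). In whole liver RNA, fewer cells of a type and less RNA per cell cannot be told apart. Of the listed markers, 20 of 20 of macrophages and 16 of 25 of T and NK cells were tested, and none of either list was at 0 in all 6 livers. Marker genes of macrophages, summed, ran from 791 to 1165 CPM in AEG1 livers and 809.7 to 1051 CPM in MYC livers, ranges that overlap, with a list median of -0.10 (-0.50 without AEG1 replicate 3 and 0.09 without MYC replicate 2); T and NK cell markers ran from 11.995 to 35.7 CPM in AEG1 livers and 13.8 to 15.3 CPM in MYC livers. Their part in the interferon result was not tested.

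The promoters of the 3 GTPase genes are shown because all 3 genes stood below both other groups in the AEG1 livers. Each window runs from 250 bases before to 50 bases after the RefSeq start (GRCm38.p6), 5′ to 3′ on the gene's strand, and capitals mark the core of the interferon-stimulated response element, which is GAAA, any 2 bases and GAAA, searched on both strands with overlapping matches kept.
Igtp: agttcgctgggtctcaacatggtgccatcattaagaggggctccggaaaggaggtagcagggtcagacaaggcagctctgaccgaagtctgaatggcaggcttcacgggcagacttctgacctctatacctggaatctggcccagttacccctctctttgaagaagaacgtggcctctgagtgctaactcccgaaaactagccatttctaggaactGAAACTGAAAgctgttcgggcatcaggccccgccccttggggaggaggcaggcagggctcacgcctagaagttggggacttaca
Irgm1: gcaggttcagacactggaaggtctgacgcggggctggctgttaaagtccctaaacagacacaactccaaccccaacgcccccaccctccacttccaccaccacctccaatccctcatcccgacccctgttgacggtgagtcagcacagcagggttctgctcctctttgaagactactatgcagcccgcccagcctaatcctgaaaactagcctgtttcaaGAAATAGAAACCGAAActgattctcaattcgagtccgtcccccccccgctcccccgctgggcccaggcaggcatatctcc
Irgm2: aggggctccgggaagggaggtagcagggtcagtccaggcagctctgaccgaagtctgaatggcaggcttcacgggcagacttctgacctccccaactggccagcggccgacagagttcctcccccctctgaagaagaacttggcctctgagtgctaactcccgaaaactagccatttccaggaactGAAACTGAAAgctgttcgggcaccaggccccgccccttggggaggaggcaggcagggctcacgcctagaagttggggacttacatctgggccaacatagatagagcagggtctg
The windows are chr11:58199306-58199605 (+ strand), chr11:48871371-48871670 (- strand) and chr11:58214727-58215026 (+ strand). The core was found in 19 of the 33 interferon list genes with a promoter entry (57.6%) and in 1079 of 27025 entries (3.99%), which describes the list and not these livers.

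Lipogenesis genes were higher in AEG1 livers, most of all in AEG1 replicate 3. 25 of 30 genes of fatty acid and triglyceride synthesis were higher in AEG1 livers, 11 at an unadjusted p under 0.05 (background 3.06%) and 7 without overlap (6.43%), with a median of 0.59, which was 0.21 without AEG1 replicate 3. The mean level of the list was -0.26, 0.21 and 0.77 log2 units in AEG1 replicates 1 to 3, against -0.25, -0.19 and -0.28 in MYC livers and -0.18, -0.13 and -0.22 in WT livers, so AEG1 replicate 1 was at the level of the MYC and WT livers. Elovl6, the elongase that makes stearate from palmitate, separated the groups in every liver, with 341, 689 and 922 CPM in AEG1 livers, 189, 245 and 178 CPM in MYC livers and 156, 272 and 228 CPM in WT livers; its log2 difference was 1.67 ± 0.35 (edgeR adjusted p = 0.307, DESeq2 3.05e-04). Acaca and Acacb encode the acetyl-CoA carboxylases that commit carbon to fat synthesis. Acaca had 95.3, 114 and 124 CPM in AEG1 livers and 89.5, 83.6 and 63.6 CPM in MYC livers. Acacb had 219, 351 and 432 CPM in AEG1 livers and 204, 217 and 178 CPM in MYC livers. Fasn, the fatty acid synthase, and Acly, ATP citrate lyase, named after their values were seen, overlapped between the groups. Fasn had 1454, 2576 and 3598 CPM in AEG1 livers and 1650.3, 1788 and 1268 CPM in MYC livers. Acly had 762, 1492 and 2044 CPM in AEG1 livers and 678, 800.4 and 552 CPM in MYC livers. Pnpla5, a lipase of the patatin family, had 1.67, 4.79 and 3.56 CPM in AEG1 livers and 1.26, 1.23 and 0.897 CPM in MYC livers. Srebf1, the transcription factor that drives many of these enzymes, had 351, 263 and 479 CPM in AEG1 livers and 378, 312 and 380.0 CPM in MYC livers, which overlap, with a difference of 0.03 ± 0.22 whose sign was not stable. The clock score was the highest of the 9 libraries in AEG1 replicate 3, which is also highest in lipogenesis. MYC replicate 3 had a clock score of 2.14 and a lipogenesis level of -0.28. With the clock score as a covariate, the lipogenesis median was 0.52. The part of time of day in this result was not tested.

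Cholesterol synthesis showed no separation that held without AEG1 replicate 3: 22 of 26 genes were higher in AEG1 livers with a median of 0.31, which was -0.01 without that library. Sc5d, a late enzyme of the pathway, had 795, 935 and 1257 CPM in AEG1 livers, 643, 710.0 and 601 CPM in MYC livers and 769, 868 and 1028 CPM in WT livers. Fdps, farnesyl diphosphate synthase, had 71.1, 77.2 and 151 CPM in AEG1 livers and 51.2, 72.5 and 54.4 CPM in MYC livers, with overlap.

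**Figure D4:**
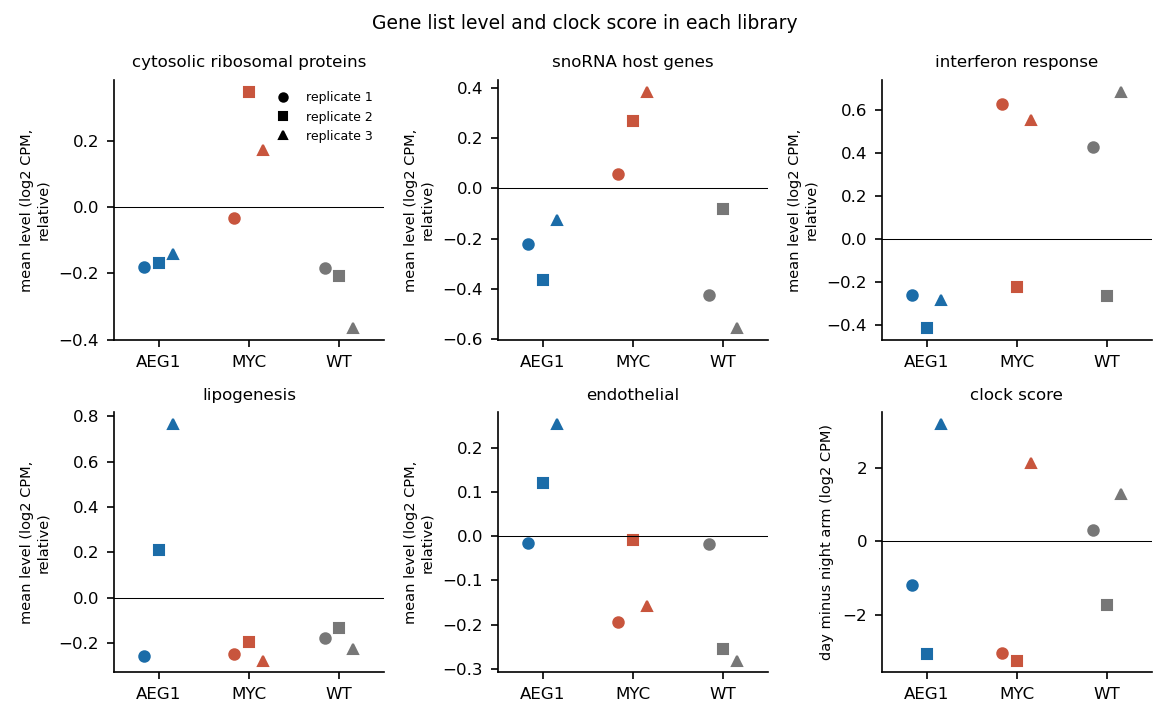
Mean level of 5 gene lists in each library (log2 CPM relative to the mean of the 6 AEG1 and MYC livers) and the clock score (log2 CPM, day minus night arm); symbols are libraries and shapes are replicate numbers. Ribosomal protein and snoRNA host levels are above the AEG1 values in all MYC livers, MYC replicate 2 and WT replicate 2 lie with the AEG1 livers in the interferon panel, and AEG1 replicate 3 is highest in lipogenesis and clock score.

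Markers of liver endothelial cells were slightly higher in AEG1 livers. 25 of 26 markers were higher, 7 at an unadjusted p under 0.05 (background 3.06%) and 12 without overlap (6.43%), with a median of 0.25 (0.19 to 0.32 leaving out 1 library), and their summed level was 1111 to 1253 CPM in AEG1 livers, 939.5 to 1062 CPM in MYC livers and 883 to 1064 CPM in WT livers. Robo4, an endothelial guidance receptor, had 14.9, 13.5 and 17.3 CPM in AEG1 livers, 10.5, 10.8 and 11.02 CPM in MYC livers and 10.9, 9.77 and 10.6 CPM in WT livers (log2 difference 0.50 ± 0.12, DESeq2 adjusted p = 0.0428). Dnase1l3, a secreted nuclease of sinusoidal cells, had 70.2, 74.3 and 90.3 CPM in AEG1 livers and 58.2, 54.3 and 51.4 CPM in MYC livers. Fcgr2b, the inhibitory Fc receptor of sinusoidal endothelium, had 50.6, 48.7 and 54.7 CPM in AEG1 livers, 39.7, 43.4 and 41.3 CPM in MYC livers and 39.6, 43.3 and 39.7 CPM in WT livers. For Robo4 and Fcgr2b all 3 AEG1 livers lay above all 6 others. In the angiogenesis list, 18 of 22 genes were higher with a median of 0.16 (0.08 without AEG1 replicate 3), among them the receptors Kdr (64.4, 66.2 and 78.8 CPM in AEG1 livers and 54.5, 61.1 and 55.9 CPM in MYC livers) and Tie1 (22.98, 24.9 and 23.1 CPM in AEG1 livers and 16.6, 19.2 and 20.1 CPM in MYC livers), which the endothelial list also holds, and the ligand Vegfb (log2 difference 0.42 ± 0.14).

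Stellate cell and matrix genes had no shared direction. 17 of 28 were higher, 7 at an unadjusted p under 0.05 (background 3.06%), and 2 were lower at that level (3.25%); the median of 0.19 was 0.03 without AEG1 replicate 3. Those higher included Colec10, Lrat, Ecm1 and Dcn, and those lower were Lox and Acta2. Colec10, a secreted lectin, had 79.5, 61.1 and 70.9 CPM in AEG1 livers, 48.7, 52.0 and 39.6 CPM in MYC livers and 54.05, 56.5 and 49.8 CPM in WT livers (DESeq2 adjusted p = 0.0152). Lrat, which stores retinol as esters, had 39.8, 44.4 and 53.4 CPM in AEG1 livers and 26.3, 34.0 and 19.6 CPM in MYC livers. Lox, which crosslinks collagen, had 0.137, 0.192 and 0.171 CPM in AEG1 livers and 0.510, 0.412 and 0.513 CPM in MYC livers. Acta2, smooth muscle actin, had 3.09, 1.92 and 2.56 CPM in AEG1 livers and 4.01, 3.95 and 33.4 CPM in MYC livers, the last of these far above the rest. In WT livers Acta2 had 2.41, 4.30 and 13.5 CPM, with WT replicate 3 the highest. MYC replicate 3 was also the high library for bile duct genes, and WT replicate 3 was the highest of the WT livers. The mean level of the bile duct list was -0.46, -0.41 and -0.12 log2 units in AEG1 replicates 1 to 3. It was 0.39, -0.26 and 0.85 in MYC replicates 1 to 3 and -0.77, -0.30 and 0.40 in WT replicates 1 to 3. Krt19, a cytokeratin of bile duct cells, had 0.876, 0.623 and 1.10 CPM in AEG1 livers, 1.91, 0.933 and 8.46 CPM in MYC livers and 0.477, 1.09 and 3.95 CPM in WT livers. Muc1 had 0.383, 0.479 and 0.805 CPM in AEG1 livers, 1.63, 0.686 and 7.28 CPM in MYC livers and 0.566, 0.524 and 5.41 CPM in WT livers. The bile duct list median was -0.69 and became -0.17 without MYC replicate 3. Elf3, an epithelial transcription factor of that list, was high in all 3 MYC livers, with 0.438, 0.527 and 0.830 CPM in AEG1 livers, 2.48, 2.44 and 1.97 CPM in MYC livers and 0.656, 1.38 and 1.50 CPM in WT livers (log2 difference -1.92 ± 0.37, DESeq2 adjusted p = 0.00121).

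Lymphocyte markers had positive medians that depended on AEG1 replicate 3. The T and NK cell median of 0.46 was -0.36 without that library, and the B and plasma cell median of 0.36 was -0.24. At an unadjusted p under 0.05 edgeR gave 0 genes of either list, and DESeq2 called 0. Macrophage markers were lower in 12 of 20 cases, with 0 at that level by edgeR and 0 called by DESeq2.

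AEG-1 has been linked to NF-kB, coagulation and nuclear receptors, as background. Of 13 tested genes in the list of Mtdh and its binding partners, 1 was lower in AEG1 livers at an unadjusted p under 0.05 (background 3.25%). That gene was Snd1, with 135, 155 and 154 CPM in AEG1 livers, 170.3, 194 and 169.8 CPM in MYC livers and 176, 152 and 162 CPM in WT livers. NF-kB subunits and targets were lower in AEG1 livers in 17 of 25 cases, 4 at an unadjusted p under 0.05 (background 3.25%), with a median of -0.23 (-0.12 without AEG1 replicate 1). These 4 were Nfkbiz and Bcl3, nuclear IkB proteins, the inhibitor Nfkbib and the protease Mmp9. Nfkbiz had 12.5, 17.9 and 18.9 CPM in AEG1 livers, 20.5, 27.2 and 21.9 CPM in MYC livers and 13.2, 13.2 and 13.2 CPM in WT livers. Bcl3 had 22.3, 17.5 and 9.98 CPM in AEG1 livers, 26.6, 31.8 and 30.8 CPM in MYC livers and 15.3, 28.6 and 13.98 CPM in WT livers. Coagulation genes had a median of 0.09, with 21 of 29 higher in AEG1 livers. Without overlap between the groups, 7 were higher (background 6.43%) and 1 was lower (5.99%). At an unadjusted p under 0.05, 1 of 29 was higher in AEG1 livers, near the background of 3.06%. That gene was F5, factor V, with 888, 913 and 826 CPM in AEG1 livers, 783, 745 and 678 CPM in MYC livers and 927, 885 and 954 CPM in WT livers. The nuclear receptor list had a median of -0.02, with Rxra, the main retinoid X receptor of hepatocytes, at 463, 441 and 489 CPM in AEG1 livers and 451, 503 and 559 CPM in MYC livers, which overlap, and Rarb, a retinoic acid receptor, at 6.98, 7.86 and 8.52 CPM in AEG1 livers and 6.23, 6.61 and 5.64 CPM in MYC livers.

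Acute phase genes, which the liver secretes in inflammation, were mixed, with 16 of 27 lower in AEG1 livers and a median of -0.13. At an unadjusted p under 0.05, 4 were lower (background 3.25%) and 2 higher (3.06%), and log2 differences ran from -1.92 to 1.12. The genes described here are among those lower. Orm3, an orosomucoid with close paralogs, had 4.35, 2.97 and 2.90 CPM in AEG1 livers, 14.7, 15.8 and 8.43 CPM in MYC livers and 4.86, 4.98 and 2.37 CPM in WT livers. The log2 difference was -1.92 ± 0.34 (DESeq2 adjusted p = 2.60e-05). Lbp, the lipopolysaccharide binding protein, had 67.1, 74.3 and 53.8 CPM in AEG1 livers, 118, 87.8 and 89.4 CPM in MYC livers and 99.8, 87.9 and 76.8 CPM in WT livers. Hp, haptoglobin, had 1878, 1875 and 2345 CPM in AEG1 livers and 2892, 2948 and 2579 CPM in MYC livers.

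Several hepatocyte enzymes had their lowest levels in MYC livers. Cyp7a1, whose product starts the classic route to bile acids, had 115, 84.7 and 84.8 CPM in AEG1 livers, 33.5, 52.98 and 74.4 CPM in MYC livers and 161, 74.4 and 129 CPM in WT livers. The log2 difference was 0.82 ± 0.34. Cyp27a1, of the alternative route, had 436, 532 and 457 CPM in AEG1 livers, 386, 398 and 324 CPM in MYC livers and 525, 509 and 441 CPM in WT livers. These were the 2 members of the bile acid list at an unadjusted p under 0.05 (background 3.06%), and its median was 0.10 over 29 genes. Amino acid breakdown genes were higher in AEG1 livers in 33 of 42 cases, with a median of 0.14 (0.08 without AEG1 replicate 3); Hpd, which breaks down tyrosine, had 1686, 1640.4 and 1945 CPM in AEG1 livers, 1181, 1299 and 1286 CPM in MYC livers and 1541, 1579 and 2102 CPM in WT livers. Oxidative phosphorylation (0.01 over 63 genes), proteasome (-0.02) and complement (0.03) genes had medians near 0. Genes of fetal liver and liver tumours had a median of -0.16 (-0.28 without AEG1 replicate 3), with 3 of 20 lower at an unadjusted p under 0.05 (background 3.25%). Among them Ly6d, a surface protein gene, had 0.356, 0.527 and 1.39 CPM in AEG1 livers, 4.97, 4.12 and 4.205 CPM in MYC livers and 1.28, 3.85 and 1.62 CPM in WT livers (DESeq2 adjusted p = 0.00121), and Cpe, carboxypeptidase E, had 0.548, 0.479 and 0.635 CPM in AEG1 livers and 1.16, 0.768 and 3.85 CPM in MYC livers. Female-biased liver genes had a median of 0.37 and male-biased ones 0.13, the second ranging from -0.07 without AEG1 replicate 1 to 0.34 without AEG1 replicate 3, and 0.56 without both replicates 3.

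**Figure D5:**
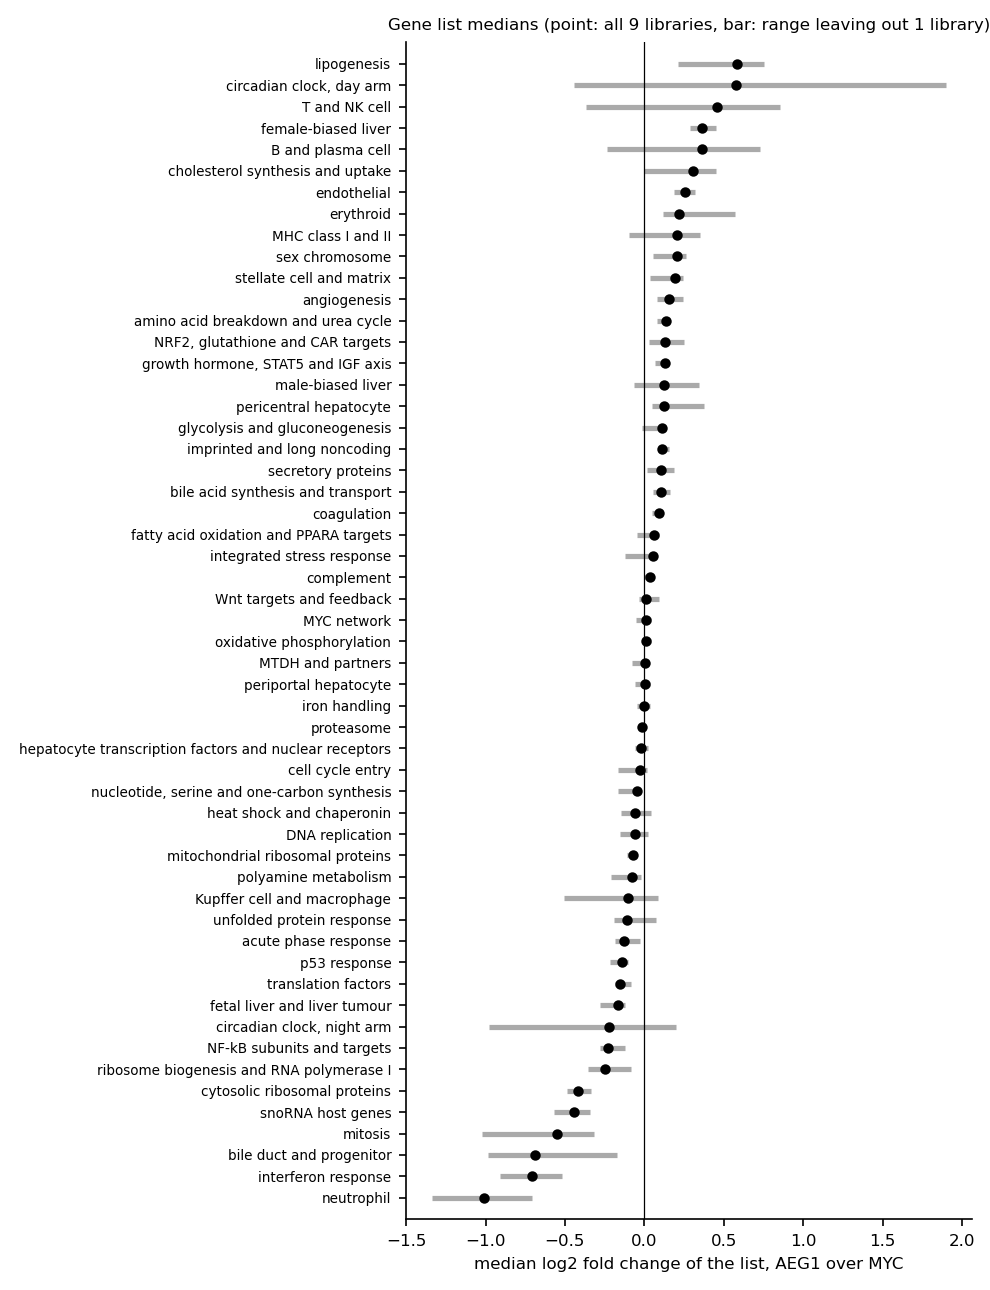
Median log2 fold change of AEG1 over MYC livers for 54 gene lists (points), with the range of the median when 1 of the 9 libraries is left out (bars); the median over all genes is 0.00. Lists whose bar stays left of 0 include ribosomal proteins, snoRNA hosts and interferon response, those that stay right of 0 include lipogenesis and endothelial markers, and bars that cross 0 include both lymphocyte lists, cholesterol synthesis and both clock arms.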

How the data were processed

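RNA was sequenced from liver of 12 mice, and the 9 AEG1, MYC and WT libraries entered the fit. Per the labels' protocols, a Qiagen miRNeasy kit gave total RNA, from which Illumina TruSeq RNA libraries were prepared. Per the submitters' processing notes, the tools were CASAVA 1.8.2, TopHat2 2.0.7 and HTSeq with genome build mm9. The authors deposited raw read counts per gene for each library, with 5 summary lines that were left out here. Those lines held 11.5% to 15.5% (no gene) and 0.634% to 0.746% (ambiguous) of uniquely mapped reads. The HTSeq version, annotation and strand setting are unknown, and counts of overlapping genes are uncertain. At these depths (at least 21931197 reads in genes) low genes carry most counting error.

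Genes were filtered with filterByExpr, scaled by TMM and tested with edgeR 4.0.16 (R 4.3.3; robust quasi-likelihood fit, contrast AEG1 minus MYC, Benjamini-Hochberg adjustment over 13579 genes, threshold 0.05). The AEG1_MYC libraries were left out of the main fit and are shown on its scale. Alternatives were DESeq2 1.42.0, limma 3.58.1, other filters, scalings and library sets, and the clock score as a covariate. The workflow was tested on simulated data. List levels are means of log2 CPM (prior count 2). The comparison, the 54 gene lists and the main fit were chosen with earlier results of these data known. Named genes are Myc, Mtdh, Bnc2, the 10 of lowest p in each direction with a mean CPM of at least 1 and no overlap, and up to 4 of lowest p in each list; the others were chosen after their values were seen. Not every gene under this rule is reported here. Promoter windows were from RefSeq (GRCm38.p6).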

Additional observations from a re-analysis of the deposited data

Results flagged for a closer look

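The AEG1_MYC livers, which carry both transgenes, entered no comparison above. AEG1_MYC replicate 2 stood apart from the other 11 libraries: Alb took 2.87% of its reads, and Ddx3y, a Y-linked gene, had 131, 3.92 and 99.6 CPM in AEG1_MYC replicates 1 to 3, against 89.4 to 154 CPM in the other 9 libraries. Its part in the AEG1_MYC values was not tested. On the same scale, the 8 genes given here had their lowest AEG1_MYC level above every WT liver. This lowest level was 56.8 CPM for Myc, against at most 4.62 CPM in WT livers, and 3.27 CPM for Bnc2, against at most 1.08 CPM in WT livers. It was 15.7 CPM for 1500012F01Rik (Zfas1), 63.3 CPM for Gas5, 8.996 CPM for 9030619P08Rik and 1.21 CPM for Smpdl3b. For the translation genes it was 130.9 CPM for Rplp0 and 155 CPM for Eef1b2. Whether these levels differ from those of WT livers was not tested. The 8 genes are not a full count. Other named genes also had every AEG1_MYC liver above every WT liver, among them Rpl32 and Eef2. Others did not, among them Mtdh and Apoc2. The share of all genes with this order was not counted.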

How the results depend on the processing

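The count of called genes was 0 in the main edgeR fit. It was 3 with the 6 compared libraries alone, 1 without a filter on low counts (Apoc2) and 84 with DESeq2. It was 0 with all 12 libraries (504 at an unadjusted p under 0.05), with another scaling, a stricter filter, limma, no robust step or the clock score as a covariate (1068 unadjusted). Leaving out 1 library gave 0 to 3 called genes: Meox2, Apoc2 and Myc without WT replicate 1, Sult2a7 and Apoc2 without WT replicate 3. Without AEG1 replicate 3 and MYC replicate 3 together, chosen after seeing the data, it was 0 (587 unadjusted). The causes were not tested. No paired analysis was possible because the labels number the mice singly and no number is shared between the genotypes.

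The Myc difference was -3.15 in DESeq2 (adjusted p = 1.38e-15) and lay between -3.38 and -2.74 when 1 library was left out, with an adjusted p of 0.0414 without WT replicate 1. Mtdh turned to -0.0055 with the 6 libraries alone and lay between -0.035 and 0.035 when 1 library was left out. Arntl turned to 0.15 with the clock covariate and lay between -1.28 and 0.24 when 1 library was left out. Srebf1 was -0.0066 in limma, -0.11 with the clock covariate, -0.17 without both replicates 3, and between -0.22 and 0.21 when 1 library was left out. Of the 94 named genes the rest kept their sign under every alternative that gave them a value, which was 18 of 19 for Lox, Mmp9 and Plk1. Without both replicates 3, the median was -0.44 for ribosomal proteins, -0.02 for ribosome biogenesis, -0.60 for the interferon response, 0.27 for lipogenesis and 0.19 for endothelial markers. Genes under a few CPM are limited by depth and by 3 mice per group.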

Other observations

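Meox2, Sult2a7, Srgap3 and Mettl21d were chosen here after their values were seen in all 12 libraries laid side by side. Meox2 varied by large steps within the WT and the AEG1_MYC group, and Sult2a7 within the AEG1_MYC group. Meox2 had 0.0321, 0.0884 and 9.995 CPM in AEG1_MYC livers, so that 2 of them were near 0 like the 3 MYC livers and WT replicate 1, and the third was like the AEG1 livers. Sult2a7 had 26.5, 3.15 and 91.7 CPM in AEG1_MYC livers. Srgap3 had 1.76, 0.383 and 0.469 CPM and Mettl21d 2.44, 8.28 and 12.9 CPM in these livers. Apoc4 had 249.7, 257 and 429 CPM. Elovl6, high in AEG1 livers, had 224, 103 and 193 CPM in AEG1_MYC livers. Apoc2 had 443, 299.8 and 557 CPM there.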
